A study of Mus musculus with 16 samples.

Results

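The Sox and T-box genes encode 2 families of transcription factors, and 31 of them, 18 Sox and 13 T-box genes, were followed here by name among 21631 protein-coding genes of mouse chromosomes 1 to 19 and X. What was measured is H3K27me3, a repressive histone mark, mapped by ChIP-seq (sequencing of the DNA that an antibody to the mark pulls down) in bulk splenic B cells. The donors were C57BL/6 mice of 6 to 8 weeks, and their B cells, isolated with CD43 beads, were kept for 48 hours in medium with BAFF and IL-4, 2 cytokines that support B cells. The mice were wild type (WT) or Ifih1/Rigi/cGAS triple mutant, that is, mutated in 3 sensors of nucleic acids in the cytosol; the kind of mutation is not given in the sources used here. The cells of each genotype were given DMSO, the solvent, or 1 µM GSK343, an inhibitor of the H3K27 methyltransferase EZH2. Each combination had 2 ChIP samples and 2 inputs and is represented by 1 list of broad peaks.

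Sox proteins bind DNA through an HMG box and are sorted into groups by the sequence of that box. T-box proteins bind DNA through the domain that names them. Both families direct the formation of tissues in the embryo, among them neural tube, neural crest, cartilage, heart, limb and blood vessel. Their genes are textbook targets of Polycomb repressive complex 2, whose catalytic subunit EZH2 writes H3K27me3, and in differentiated cells of other lineages they commonly lie in broad domains of the mark.

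For each gene the window was the gene body plus 5 kb on each side. The covered share is the percentage of the window that lies in peaks of a list, and the retained share is the number of bases covered under GSK343 as a percentage of the number covered under DMSO. With 1 list per group there is no spread between replicates, so no difference between lists, genes or families below was tested. Read depth is unknown from the files. In bulk chromatin a mark on fewer cells and a weaker mark on each cell cannot be told apart, and a peak list does not measure expression. The lists held between 10847 and 49803 peaks. None of the 7 windows of B cell marker genes (Cd79a, Cd79b, Ms4a1, Cd22, Blk, Pax5 and Ebf1) held a peak in any list, though 5, 1 and 7 peak numbers are missing beside Ms4a1 in WT DMSO, WT GSK343 and mutant DMSO, where removed peaks may have lain. In WT DMSO a peak lay in 5 of 7 T cell, 2 of 5 myeloid and 1 of 3 erythroid marker windows, against 43.5% of the windows of all protein-coding genes. The myeloid and erythroid counts are near that share, and nothing about these lineages is read from so few windows. Beside the myeloid markers Itgam and Adgre1, 1 and 7 peak numbers are also missing in WT DMSO. In the mutant lists the library name that opens each peak's name ends in 1, and whether these lists rest on replicate 1 alone cannot be told from the files.

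Most of the 31 windows held at least part of an H3K27me3 peak in each list. Under the inhibitor they differed from DMSO more in how much was covered than in whether a peak was present. A peak lay in 26 of the 31 windows in WT cells with either treatment, and in 27 (DMSO) and 25 (GSK343) in mutant cells. Among all protein-coding genes the corresponding percentages were 43.5%, 26.3%, 48.9% and 24.4%. At least 50% of the window was covered in 15, 7, 16 and 6 of the 31 genes in the same order, against 5.16%, 1.35%, 7.85% and 0.994% of all genes. The median covered share of the 31 was 44.9% (DMSO) and 22.1% (GSK343) for WT, and 69.4% and 14.9% for mutant cells. For all protein-coding genes the median was 0% in each list.

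**Figure D1:**
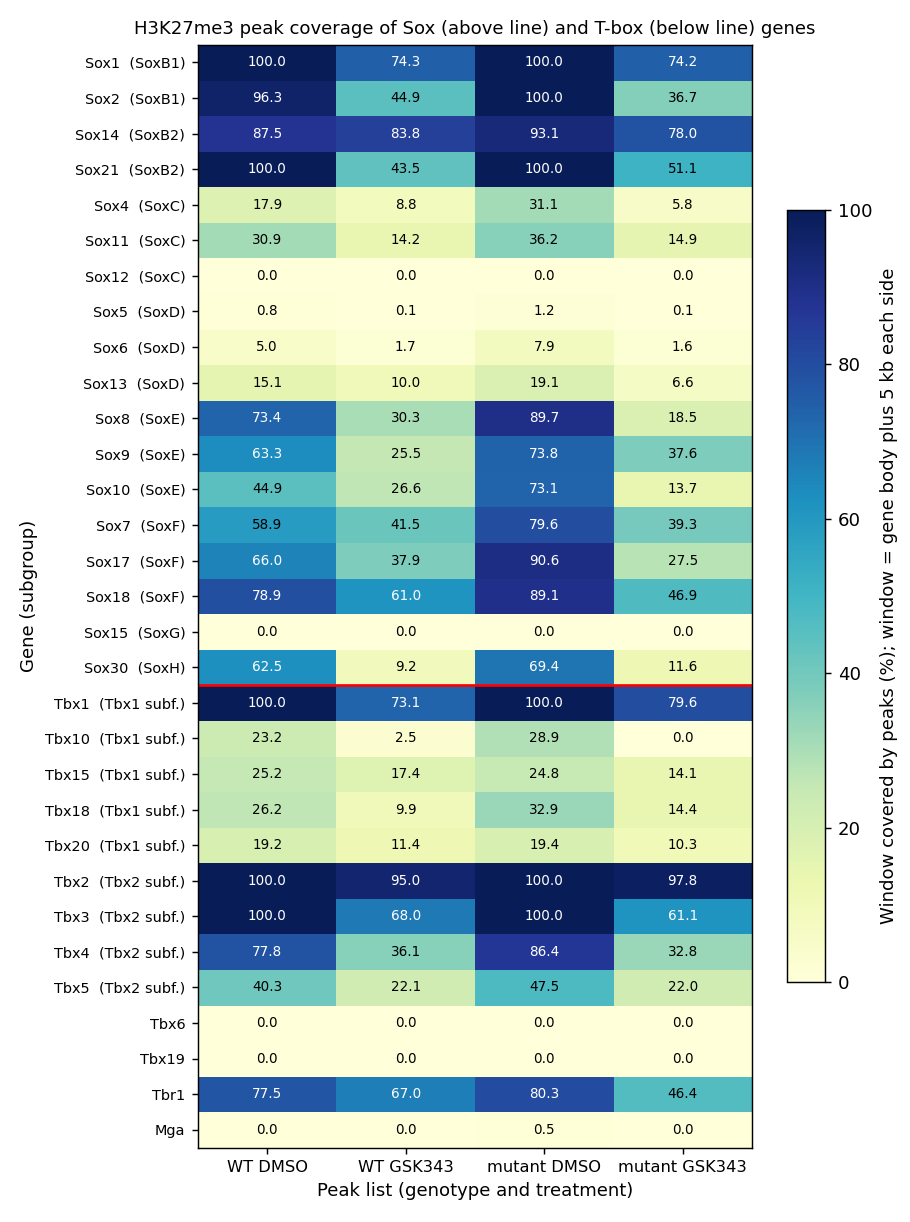
Covered share of the window (gene body plus 5 kb each side, in %) for each Sox and T-box gene (rows, by subgroup) in each peak list (columns), 1 list per group. Both families hold fully covered genes, such as Sox1 and Tbx2 under DMSO, beside genes at 0% in all 4 lists, such as Sox12 and Tbx6.

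The SoxB genes, which act in neural progenitors and neurons, had the highest covered shares of the Sox groups under DMSO. Sox1 (chromosome 8, 12395519 to 12399555) and Sox2 (chromosome 3, 34649995 to 34652461), the B1 genes that maintain neural progenitors, were covered by 100% and 96.3% in WT DMSO and by 100% each in mutant DMSO. Under GSK343, Sox1 was covered by 74.3% in WT and 74.2% in mutant cells. Sox2 was covered by 44.9% and 36.7%. A single peak lay over each of these windows under DMSO, and 3 or 4 shorter ones under GSK343. Over Sox1 the DMSO peak was 35.8 kb wide in WT and 32.8 kb in mutant cells, and the widest of the 3 WT and 4 mutant GSK343 peaks were 4.37 kb and 8.76 kb. The B2 genes Sox14 and Sox21, which counteract the B1 proteins in neuronal differentiation, were also nearly or fully covered under DMSO. Sox14 (chromosome 9, 99874106 to 99876170) was covered by 87.5% under DMSO and 83.8% under GSK343 in WT cells, and 93.1% and 78.0% for the mutant. Its retained share, 95.7% in WT and 83.8% in mutant cells, was the highest of the 18 Sox genes in both genotypes, except that with peaks closer than 3 kb merged Sox1 was higher (97.3% against 92.9% in mutant cells), and over the gene body alone Sox18 equalled it at 100%. Sox21 (chromosome 14, 118233233 to 118237030) was fully covered (100%) in both DMSO lists, with 43.5% under GSK343 in WT and 51.1% in mutant cells. The B1 and B2 genes did not separate by retained share: Sox1 and Sox14 lay above Sox2 and Sox21 in each genotype. With peaks closer than 3 kb merged, Sox21 (93.2%) was above Sox14 in mutant cells, and over the gene body alone it was above Sox1 there, at 82.3% against 81.97%.

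The SoxE and SoxF genes had intermediate to high coverage in WT DMSO and more in mutant DMSO. SoxE proteins act in neural crest, glia, cartilage and testis. Sox8 (chromosome 17, 25565893 to 25570686) was covered by 73.4% and 30.3% in WT cells (DMSO, then GSK343) and 89.7% and 18.5% in mutant cells. Sox9 (chromosome 11, 112782210 to 112787757), the cartilage and testis regulator, was covered by 63.3%, 25.5%, 73.8% and 37.6% in the same order. Sox10 (chromosome 15, 79154913 to 79164490), the regulator of neural crest and glia, was covered by 44.9%, 26.6%, 73.1% and 13.7%, with its neighbour Polr2f also in the window. Sox9 differed from the other two in genotype order under GSK343, with the higher value in mutant cells. SoxF proteins act in endothelium. Sox7 (chromosome 14, 63943706 to 63950732) was covered by 58.9% and 41.5% in WT and by 79.6% and 39.3% in mutant cells, under DMSO and GSK343. Sox17 (chromosome 1, 4490928 to 4497426), which also acts in endoderm, was covered by 66.0% and 37.9% in WT and by 90.6% and 27.5% in mutant cells. Sox18 (chromosome 2, 181669837 to 181671640), a gene of lymphatic vessels, was covered by 78.9% and 61.0% in WT and by 89.1% and 46.9% in mutant cells. In all 3 SoxF genes the mutant value was above WT under DMSO and below it under GSK343. The same held in all 3 SoxD genes and in 16 of the 27 Sox and T-box genes with a peak in any list. Among all genes with a peak in any list it was 31.8%.

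SoxC and SoxD genes stood lower. Of the SoxC genes, Sox4 (chromosome 13, 28948919 to 28953699) has a known role in early B cell development. Sox4 was covered by 17.9% (DMSO) and 8.82% (GSK343) for WT, and 31.1% and 5.78% for mutant cells. Sox11 (chromosome 12, 27334268 to 27342718), a gene of immature neurons, was covered by 30.9%, 14.2%, 36.2% and 14.9% in the same order. Sox12 (chromosome 2, 152393611 to 152398046), the third SoxC gene, had no peak in its window in any list. The 3 SoxC genes are short, between 4.44 and 8.45 kb, close to the SoxB and SoxE genes in length. The SoxD genes Sox5 and Sox6, which act with Sox9 in cartilage, are the longest of the 31 at 954 kb and 570 kb. Sox5 (chromosome 6, 143828425 to 144782287) was covered by 0.769%, 0.118%, 1.17% and 0.0870%, and Sox6 (chromosome 7, 115470872 to 116040776) by 4.97%, 1.73%, 7.86% and 1.57%, again from WT DMSO to mutant GSK343. Over Sox6 the DMSO peaks summed to 28.8 kb in WT and 45.6 kb in mutant cells, more than over any other Sox gene in mutant DMSO and second to Sox30 in WT DMSO. In Sox5 and Sox6 a DMSO peak lay at the 5′ end, with other peaks scattered farther inside. Over Sox5 it was 4.01 kb wide in WT and 4.28 kb in mutant cells, where a peak of similar width (4.29 kb) lay 571 kb inside the gene. The widest peak of Sox6 reached from −1.96 kb at the gene's 5′ end to 11.6 kb inside it in WT cells under DMSO, and from −4.59 to 23.1 kb in mutant cells. The only GSK343 peak in the window of Sox5 lay just outside the 5′ end, at −1.45 to −0.318 kb in WT and −1.002 to −0.164 kb in mutant cells, where negative positions are upstream. Sox13 (chromosome 1, 133382300 to 133424459), which acts in gamma-delta T cells, was covered by 15.1% and 9.99% in WT and by 19.1% and 6.60% in mutant cells, with its neighbour Etnk2 in the window.

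The last groups hold 1 gene each. Sox15 (chromosome 11, 69655037 to 69656727), the SoxG gene, had no peak in its window in any list. Sox30 (chromosome 11, 45979069 to 46017992), the SoxH gene, acts in the differentiation of sperm cells. With DMSO its covered share was 62.5% in WT and 69.4% in mutant cells, but with GSK343 9.15% and 11.6%. The widest peak over Sox30 measured 27.2 kb for WT and 35.2 kb for mutant cells under DMSO, and with GSK343 1.77 kb and 2.00 kb. Its retained share of 14.6% in WT cells was the lowest of the 16 Sox genes with a peak there, just below Sox5 at 15.3%. This rank depended on the setting. With peaks closer than 3 kb merged Sox5 was lower in WT cells, at 13.0% against 14.3%. With −log10 p of at least 5 Sox11 was lower there, at 0% against 6.28%. In mutant cells Sox5 was lower, at 7.42%, against 16.7% for Sox30. With peaks of a q-value of at most 0.01 alone, the values for Sox30 were 6.02% and 8.01%, and that for Sox5 in mutant cells was 0%. The authors' fold over background of the widest Sox30 peak under DMSO was 3.15 in WT and 3.23 in mutant cells, below the 4.13 and 4.83 of the Sox1 peak in the same lists.

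Among the T-box genes the Tbx2 subfamily, which patterns heart and limb, had the highest median covered share under DMSO among the subgroups of more than 1 gene. Tbx2 (chromosome 11, 85832615 to 85841948) and Tbx3 (chromosome 5, 119670534 to 119684724), 2 closely related repressors, were covered by 100% in both DMSO lists. Under GSK343, Tbx2 was covered by 95.0% in WT and 97.8% in mutant cells, the highest values of the 31 genes in both lists. The peak over Tbx2 under GSK343 was 20.5 kb wide in WT and 19.9 kb in mutant cells, the 9th widest of 11903 and the 4th widest of 10847 peaks. With GSK343 Tbx3 had covered shares of 68.0% in WT and 61.1% in mutant cells. The single DMSO peak of 37.8 kb in WT and 39.9 kb in mutant cells over Tbx3 stood against 5 peaks under GSK343 in each genotype, the widest 4.53 kb and 8.23 kb. With a q-value of at most 0.01, the retained share of Tbx3 in WT cells was 35.9%, against 68.0% for all peaks. Tbx4 (chromosome 11, 85886367 to 85916097), a gene of the hindlimb, was covered by 77.8% and 36.1% in WT and by 86.4% and 32.8% in mutant cells, under DMSO and GSK343. Tbx5 (chromosome 5, 119796514 to 119885220), a gene of the forelimb and heart, was covered by 40.3% and 22.1% in WT and by 47.5% and 22.0% in mutant cells. In covered length Tbx5 had the most of the T-box genes under DMSO, 39.8 kb in WT and 46.9 kb in mutant cells.

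Tbx2 and Tbx4, and likewise Tbx3 and Tbx5, are neighbours, and the stretches between them were compared. From the start of Tbx2 to the end of Tbx4 (83.5 kb), peaks covered 84.8% under DMSO and 38.8% under GSK343 in WT cells, and 90.9% and 33.4% in the mutant. The 44.4 kb between these genes were covered by 91.2%, 25.3%, 94.3% and 17.9% in the same order. Under DMSO the stretch between the genes thus had a covered share between those of the Tbx4 and Tbx2 windows, and under GSK343 a lower one than either. Between Tbx3 and Tbx5, 112 kb apart, coverage was 17.6%, 4.66%, 22.4% and 7.19%. That stretch was mostly free of peaks in all 4 lists.

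**Figure D2:**
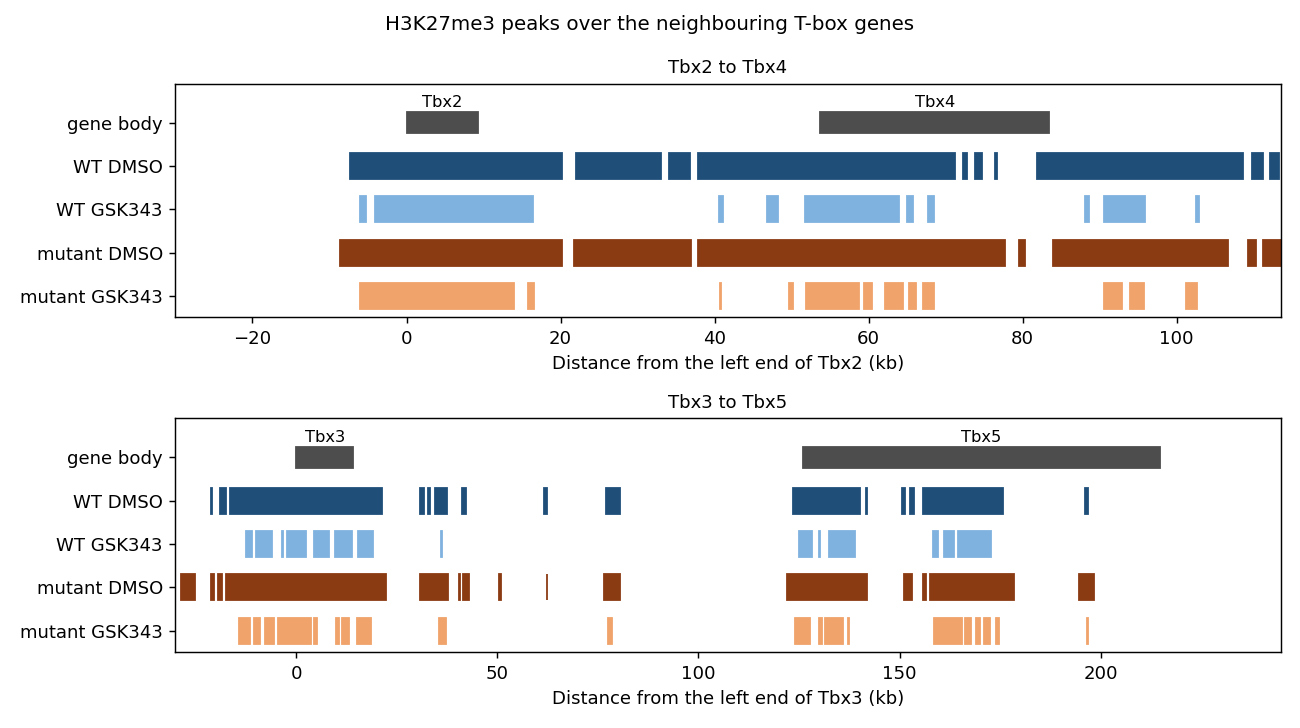
H3K27me3 peaks (coloured blocks, 1 row per list) over the Tbx2 to Tbx4 and Tbx3 to Tbx5 neighbourhoods, with gene bodies in grey and the distance from the left end of the first gene in kb. Wide DMSO peaks of up to 39.9 kb stand above several shorter GSK343 peaks, except over Tbx2, where a GSK343 peak of 20.5 kb in WT and 19.9 kb in mutant cells lies over the gene.

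In the Tbx1 subfamily 1 gene was fully covered and 4 had partial domains. Tbx1 (chromosome 16, 18580979 to 18590671), which forms the pharyngeal arches and heart outflow tract, was likewise at 100% in both DMSO lists, with 73.1% under GSK343 in WT and 79.6% in mutant cells. Tbx15 (chromosome 3, 99240348 to 99354260), a gene of the skeleton and muscle, was covered by 25.2% and 17.4% in WT and by 24.8% and 14.1% in mutant cells. A single DMSO peak of 34.9 kb in WT and 39.6 kb in mutant cells lay there, against 4 and 8 peaks under GSK343. Tbx18 (chromosome 9, 87702800 to 87731260), which acts in the sinus node and epicardium, was covered by 26.2% and 9.88% in WT and by 32.9% and 14.4% in mutant cells. Tbx20 (chromosome 9, 24720812 to 24774303), a heart gene, was covered by 19.2% and 11.4% in WT and by 19.4% and 10.3% in mutant cells. Tbx15 was the only one of the 31 genes with a lower covered share in mutant than in WT DMSO, a difference of −0.394 percentage points. Tbx10 (chromosome 19, 3992752 to 3999512) had a covered share of 23.2% in WT and 28.9% in mutant cells with DMSO. In WT GSK343 the window of Tbx10 held 1 peak of 0.416 kb, 2.48% of it, and in mutant GSK343 none, the nearest peak lying 56.2 kb away. The window of Tbx10 also holds Acy3, Nudt8 and Doc2g.

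Of the other T-box genes, Tbr1 (chromosome 2, 61802863 to 61814114), which specifies neurons of the deep cortex, was covered by 77.5% under DMSO and 67.0% under GSK343 in WT cells, and 80.3% and 46.4% for the mutant. Its retained share was 86.5% in WT and 57.7% in mutant cells. One other gene, Psmd14, reaches into the window. Mga (chromosome 2, 119872503 to 119970129) encodes a widely expressed protein with both a T-box and a helix-loop-helix domain, which pairs with MAX in a variant Polycomb complex. Its window held 1 peak in 1 list, 0.487 kb wide in mutant DMSO at 0.452% of the window, with a fold of 2.16 over background. Tbx6 (chromosome 7, 126781483 to 126785548), a gene of the early mesoderm that forms somites, and Tbx19 (chromosome 1, 165137834 to 165160773), which activates the hormone precursor gene Pomc in the pituitary, had no peak in any list.

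Sox12, Sox15, Tbx6 and Tbx19 were therefore the 4 genes at 0% throughout. Per the file names the authors removed blacklisted peaks, which leaves gaps in the numbering of the peaks. Between the peaks that flank these 4 windows no number was missing in any list, which leaves no sign of a peak taken out there. Over all 31 genes, 1 number was missing in 3 of 124 combinations of gene and list (Sox13 in mutant GSK343, Sox14 in mutant DMSO and Tbx15 in WT GSK343). The nearest peak in WT DMSO lay 6.45 kb from Sox12, 27.1 kb from Sox15, 23.3 kb from Tbx6 and 15.1 kb from Tbx19. Tbx6 and Sox15 each share their window with 2 other protein-coding genes, Ypel3 and Ppp4c with Tbx6, and Fxr2 and Mpdu1 with Sox15. No other protein-coding gene lies in the windows of Sox12 and Tbx19.

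The order of the 2 families depended on the measure. The median covered share was higher in the Sox genes, at 60.7% and 26.02% in WT cells (DMSO, then GSK343) and 73.4% and 16.7% in mutant cells, against 26.2%, 17.4%, 32.9% and 14.4% in the T-box genes. In covered length the T-box genes were higher, with medians of 16.5, 14.2, 17.1 and 9.85 kb against 9.93, 5.20, 11.97 and 4.56 kb. The median widest peak was also larger in the T-box genes, at 20.1, 4.53, 20.9 and 5.15 kb against 10.1, 3.12, 14.1 and 2.85 kb. The gene bodies differ in the same sense as the lengths, with a median of 22.9 kb in T-box and 5.17 kb in Sox genes, against 17.3 kb in all protein-coding genes. The retained share, summed over each family's windows, came to 63.8% (WT) and 55.5% (mutant) for the T-box genes, and to 47.2% and 33.98% for the Sox genes. Over the windows of all protein-coding genes it was 31.1% and 17.7%. Both families thus had more of their DMSO coverage under GSK343 than the whole set of genes, in both genotypes, a difference that was not tested. The DMSO peaks of the sets are unlike in width. Over genes with a peak, the widest had a median of 15.7 kb in WT and 18.9 kb in mutant DMSO for the 31 genes. For all genes the medians were 3.66 and 4.99 kb, so the higher retained share is not read as particular to the families. Under GSK343 the families' median covered shares changed order with 2 alternative settings: with 10 kb flanks the Sox median stood at 16.5% (WT) and 14.4% (mutant) against 17.53% and 17.4% for T-box genes, and with a q-value of at most 0.01 it was 15.2% against 17.4% in WT cells.

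Within the windows the covered bases were fewer under GSK343 in 26 of 26 genes covered in WT DMSO and in 27 of 27 covered in mutant DMSO, against 99.3% and 99.9% of all covered genes, so this direction is shared by nearly all genes. A peak was still present under GSK343 in 26 of the 26 WT genes and in 25 of the 27 mutant genes, where Tbx10 and Mga had none. Among all genes covered under DMSO the percentages were 60.1% in WT and 49.6% in mutant cells, in a set with narrower DMSO peaks. Of the bases covered under GSK343, 99.9% in WT and 100% in mutant cells fell inside DMSO peaks of that genotype. The median retained share of the genes covered under DMSO was 56.1% in WT, with a range of 10.7% (Tbx10) to 95.7% (Sox14), and 43.9% in mutant cells, with a range of 0% (Tbx10 and Mga) to 97.8% (Tbx2). By subgroup the summed retained share in WT cells was 67.9% for SoxF, 66.1% for SoxB2, 61.5% for SoxB1, 47.0% for SoxC, 46.3% for SoxE and 37.2% for SoxD. In mutant cells SoxB2 stood at 65.8%, SoxB1 at 56.6%, SoxF at 43.0%, SoxC at 32.0%, SoxE at 28.8% and SoxD at 20.01%. The Tbx2 subfamily retained 62.1% and 54.9%, and the Tbx1 subfamily 61.5% and 56.5%, in WT and mutant cells. The retained share of Sox10, 59.2% in WT and 18.8% in mutant cells, depended on the setting. It was 94.7% in WT cells with equal numbers of top peaks, and 37.6% in mutant cells with peaks closer than 3 kb merged.

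**Figure D3:**
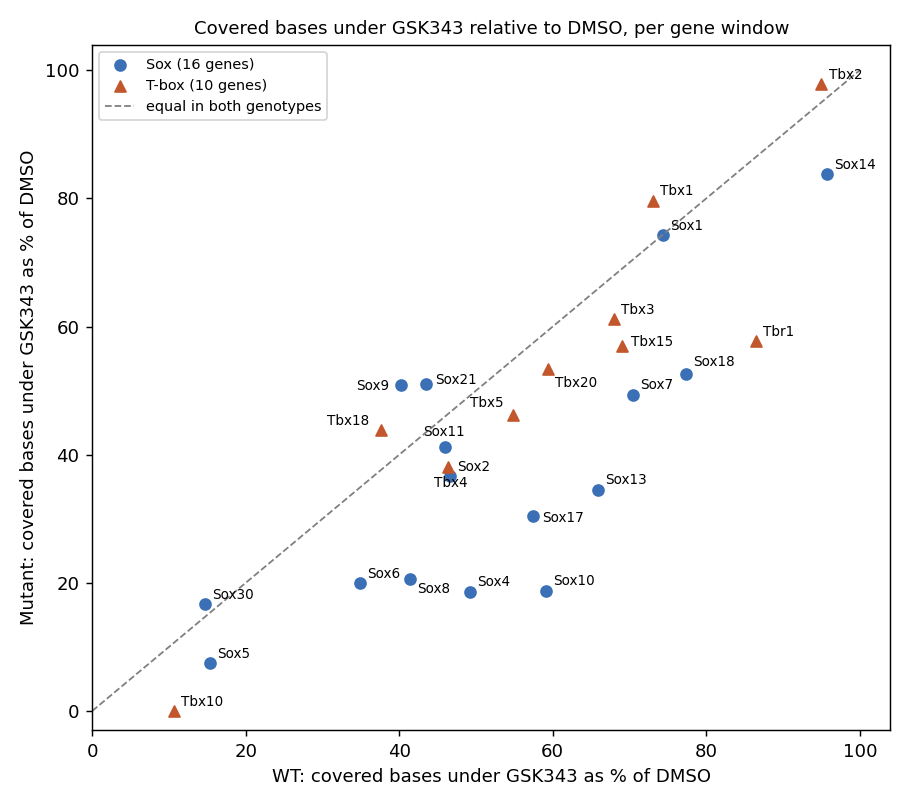
Bases covered under GSK343 as a percentage of those covered under DMSO in mutant (vertical axis) against WT cells (horizontal axis), for the 16 Sox and 10 T-box genes covered in WT DMSO. Most points lie below the dashed line of equal values, Sox10 (59.2% in WT, 18.8% in mutant) farthest, while Tbx2, Tbx1, Sox9, Sox21, Tbx18 and Sox30 lie above it.

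Peaks were narrower under GSK343, and single wide peaks stood against several pieces. The widest peak over a window was at least 10 kb wide in 18 (DMSO) and 5 (GSK343) of the 31 genes in WT cells and in 21 and 2 in mutant cells. Among all genes the percentages were 6.99%, 0.832%, 12.7% and 0.458%. The 5 genes in WT GSK343 were Tbx2, Tbx4, Tbx1, Sox14 and Tbx15, and the 2 in mutant GSK343 were Tbx2 and Tbx1. The ratio of the widest DMSO to the widest GSK343 peak had a median of 3.27 in WT and 5.00 in mutant cells over the genes with a peak under both treatments, against 2.79 and 4.96 over all such genes. Of single peaks, 58 (DMSO) and 67 (GSK343) lay over the windows in WT cells and 62 and 82 in mutant cells. Their median widths were 3.45, 2.61, 3.75 and 1.62 kb, against 0.936, 1.05, 1.13 and 0.915 kb for all peaks of the lists. The peaks over these windows were thus wider than the median peak of the whole lists with either treatment. The whole lists include peaks outside gene windows, and a wide peak reaches a window more readily than a narrow one. Single peaks over the windows of all genes were not compared. In WT DMSO 14 genes had a single peak over the window, and 10 of these had 2 or more under GSK343. For mutant cells the corresponding counts were 18 and 15. Of all genes with a single DMSO peak, 11.6% in WT and 14.3% in mutant cells had 2 or more under GSK343. The 2 sets are unlike in width. Over genes with a peak in WT DMSO, the widest had a median of 15.7 kb in these families and 3.66 kb in all genes. A smaller share of all genes also kept any peak under GSK343. The splitting is therefore not read as particular to the families. The Sox30 peaks had the highest width ratios of the 31 genes, 15.3 in WT and 17.7 in mutant cells, and the ratio for Tbx2 was 1.34 and 1.45.

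**Figure D4:**
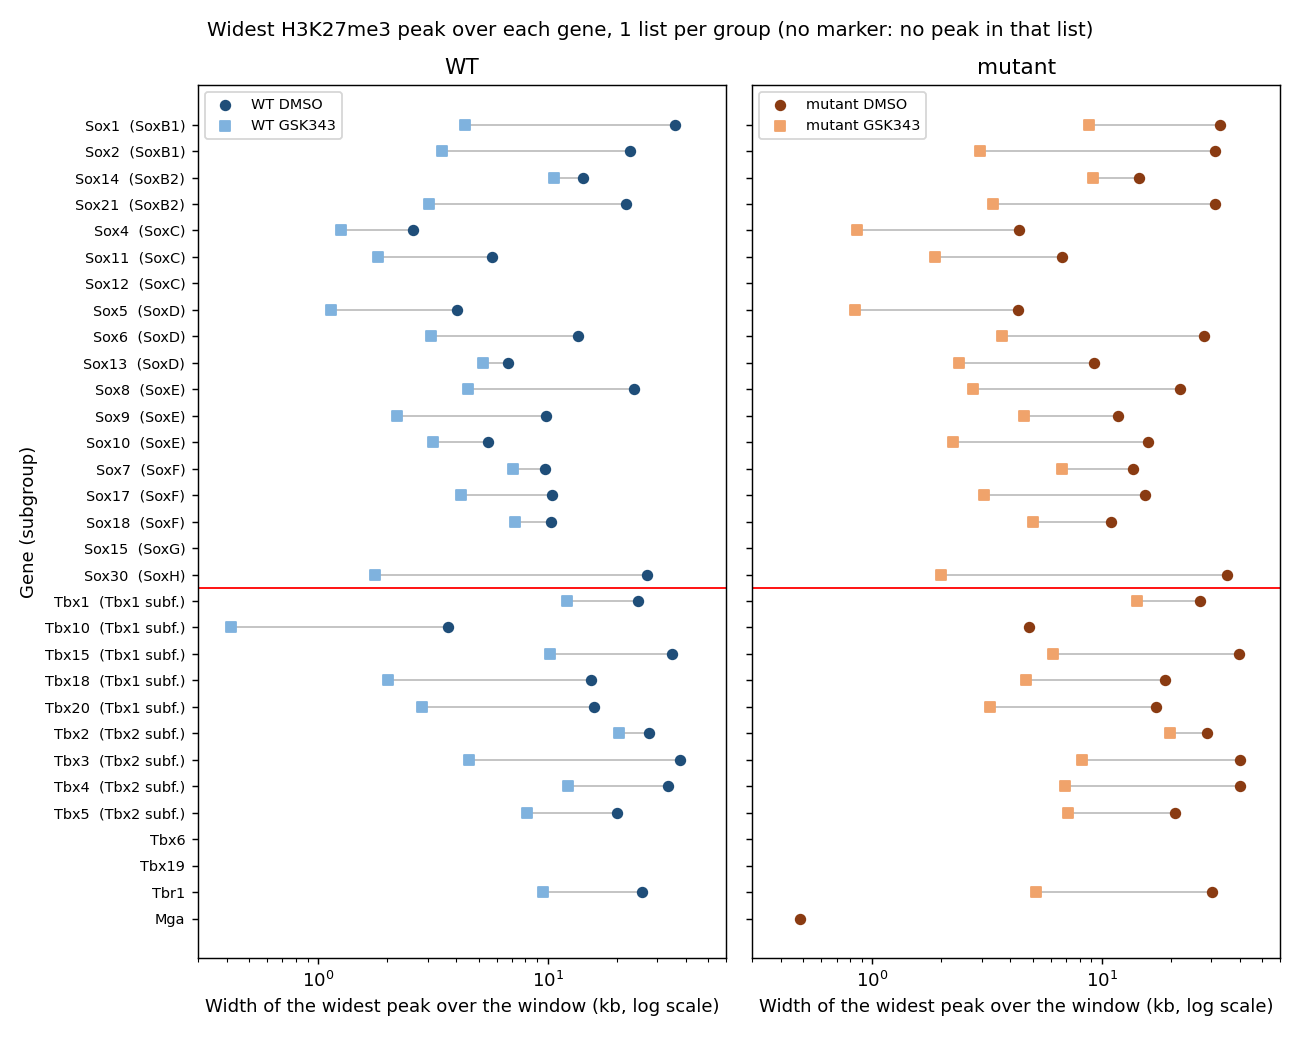
Width in kb (log axis) of the widest peak over each gene's window under DMSO (circles) and GSK343 (squares), for WT (left) and mutant cells (right), 1 list per group. Every square lies to the left of its circle (Tbx10 and Mga have no square in mutant cells), with a long gap at Sox30 (27.2 and 1.77 kb in WT) and a short one at Tbx2 (27.5 and 20.5 kb in WT).

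The genotypes differed in opposite directions under the 2 treatments. Under DMSO the covered share was higher in mutant than in WT cells for 21 of the 27 genes with a peak in either list, equal for 5 and lower for 1, and among all genes it was higher in 85.6%. Under GSK343 it was lower in mutant cells for 19 of 26 genes and higher for 7, against 65.8% lower among all genes. As percentages of the genes compared, both counts are near those of all genes, and nothing particular to the families is read from them. Of the 27 genes with a peak in any list, 16 had a higher share in mutant DMSO together with a lower one in mutant GSK343, among them Sox8, Sox10, Sox17, Sox18 and Tbr1. Among all genes with a peak in any list it was 31.8%, a set in which a smaller share of genes have a GSK343 peak to compare. The size of the difference varied by subgroup. The median difference of mutant minus WT under DMSO was 20.7 percentage points in SoxF and 16.4 in SoxE, but 0.236 in the Tbx1 subfamily. Percentage points depend on window length, and the median gene bodies were 6.50, 5.55 and 28.5 kb in the same order. As mutant to WT ratios of summed covered length under DMSO, these subgroups stood at 1.29, 1.32 and 1.04. By that ratio SoxD was the highest subgroup, at 1.51, with a median difference of only 2.89 points. Summed over each family's windows, the mutant to WT ratio of covered length under DMSO was 1.25 for Sox and 1.07 for T-box genes, against 1.47 for all genes. Windows that are fully covered in WT DMSO cannot show a higher value in mutant cells, which holds for Sox1, Sox21, Tbx1, Tbx2 and Tbx3.

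Coverage was then placed relative to the start site, using a RefSeq table of the same build that lists starts for 22 of the 31 genes, 13 Sox and 9 T-box. Not used for this were Sox7, Sox9, Sox10, Sox17, Sox18, Tbx2, Tbx3, Tbx5 and Tbx15. The start lay in a peak for 15 of the 22 (DMSO) and 13 (GSK343) for WT, and 15 and 13 for mutant cells. Of all protein-coding genes with a listed start the percentages were 19.4%, 13.0%, 21.3% and 12.1%. In 12 genes the start lay in a peak in all 4 lists: Sox1, Sox2, Sox6, Sox8, Sox11, Sox14, Sox21, Sox30, Tbr1, Tbx1, Tbx18 and Tbx20. For 7 it lay in a peak in none, and these were Mga, Sox4, Sox5, Sox12, Sox15, Tbx6 and Tbx19. Among all genes with a listed start, 10.6% had it in a peak in all 4 lists and 77.7% in none. The start of Sox4 lay outside its peaks by 0.5 to 1.44 kb. The start listed for Sox5 lies far inside the gene body, while its GSK343 peaks lay at the gene's outer 5′ end. Tbx10 had its start in a peak under DMSO only, Tbx4 in 3 lists (not WT GSK343) and Sox13 in 3 lists (not mutant GSK343). The starts listed for Tbx4 and Sox13 lie inside the annotated gene body. The outer 5′ end of Tbx4 lay within a WT GSK343 peak of 12.3 kb.

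The bases near the start had the highest retained shares. Within 1 kb of the start, 68.8% of the bases were covered in both DMSO lists, and under GSK343 55.2% in WT and 53.4% in mutant cells, so that 80.3% and 77.7% of the amount was retained. At 10 to 20 kb from the start the lists covered 24.0%, 8.27%, 29.1% and 4.92%, from WT DMSO and GSK343 to mutant DMSO and GSK343, and 34.4% and 16.9% was retained. In between, at 2 to 5 kb, 47.4% was retained in WT and 40.02% in mutant cells. For all protein-coding genes the retained share was likewise higher next to the start, with 60.7% and 47.7% retained within 1 kb and 25.1% and 12.6% at 10 to 20 kb. At each of these distances the Sox and T-box genes had the higher value of the 2 sets, which are unlike in the width of their DMSO peaks.

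**Figure D5:**
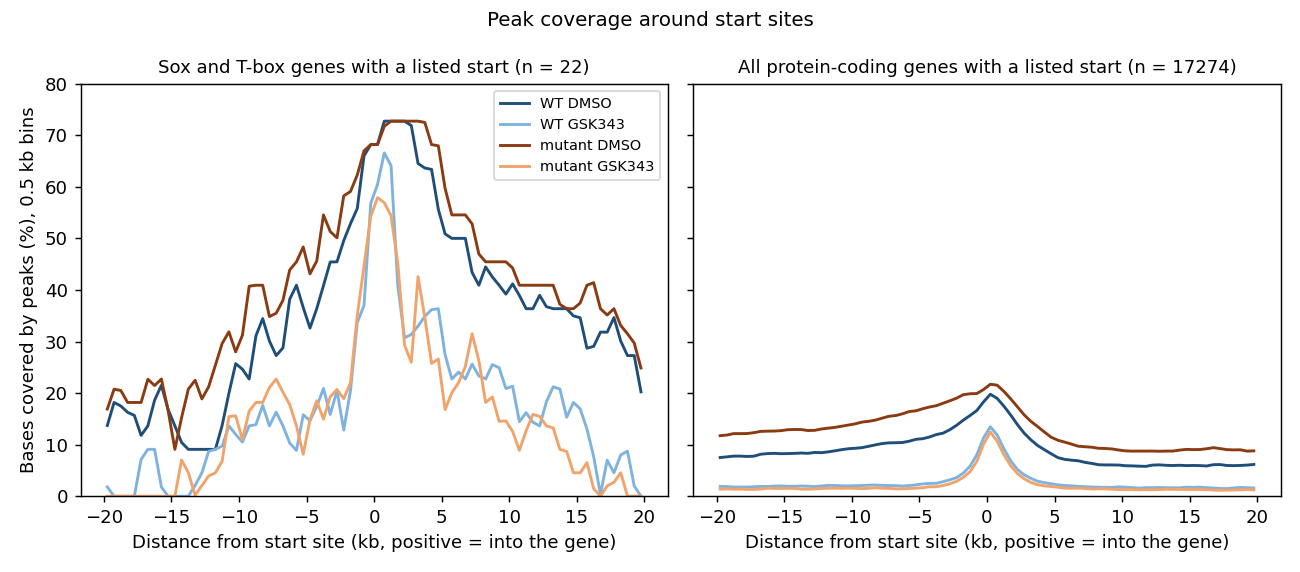
Percentage of bases covered by peaks in bins of 0.5 kb around the start site, for 22 Sox and T-box genes (left) and 17274 protein-coding genes (right), 1 line per list. Under GSK343 coverage of the 22 genes reaches 66.6% in WT and 57.9% in mutant cells near the start and drops within a few kb on either side, while the DMSO lines, which reach 72.7% in both genotypes, stay broad.

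The sequence at the start was compared between genes whose listed start lay in a peak and genes whose listed start did not, since CpG-rich starts are textbook sites of Polycomb binding. The motif counted was CG, which reads the same on both strands, in the 250 bases before the start. The 12 genes with their start in a peak in all 4 lists had a median of 17.5 CG (range 5 to 29), and the 7 genes with none had a median of 7 (range 3 to 35). Over all protein-coding genes the same split gave medians of 16 and 9, so the contrast is not particular to these families. Their overall median, for complete sequences, was 10, and at least 1 CG was present in 92.8% of the 17268. The ranges overlap fully. Sox12, without a peak in any list, had 35 CG, the most of the 22 genes, and Tbr1, with its start in a peak throughout, had 5, though the start listed for Tbr1 lies inside the annotated gene body. The listed starts of Sox6 and Sox30, in the group of 12, and of Sox5 and Mga, in the group of 7, also lie inside the gene body. Sox4 and Sox5 have peaks elsewhere in their windows in all 4 lists.

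The sequences of 5 genes are shown, 2 with the start in a peak in all 4 lists (Sox14 and Tbx20), 1 with it in a peak under DMSO only (Tbx10) and 2 without a peak (Sox12 and Tbx19). They were taken from those whose 250 bases overlap no annotated gene. Each is the stretch before the start, 5′ to 3′ on the gene's strand, from RefSeq on GRCm38.p6, with every CG in capitals. Sox14 lies at chr9:99876171-99876420 on the minus strand with 23 CG, Tbx20 at chr9:24774304-24774553 on the minus strand with 22, and Tbx10 at chr19:3992502-3992751 on the plus strand with 3. Sox12 lies at chr2:152398047-152398296 and Tbx19 at chr1:165160774-165161023, both on the minus strand, with 35 and 7.
Sox14: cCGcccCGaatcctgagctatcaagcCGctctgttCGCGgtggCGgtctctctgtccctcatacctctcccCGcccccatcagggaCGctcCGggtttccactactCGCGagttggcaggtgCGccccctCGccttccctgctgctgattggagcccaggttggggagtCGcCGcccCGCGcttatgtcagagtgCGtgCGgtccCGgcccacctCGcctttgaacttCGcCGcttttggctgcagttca
Tbx20: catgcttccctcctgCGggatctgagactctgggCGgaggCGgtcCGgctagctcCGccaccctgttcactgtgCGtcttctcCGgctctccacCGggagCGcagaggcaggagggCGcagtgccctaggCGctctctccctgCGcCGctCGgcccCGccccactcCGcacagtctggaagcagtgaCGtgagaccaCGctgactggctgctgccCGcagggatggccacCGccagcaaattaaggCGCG
Tbx10: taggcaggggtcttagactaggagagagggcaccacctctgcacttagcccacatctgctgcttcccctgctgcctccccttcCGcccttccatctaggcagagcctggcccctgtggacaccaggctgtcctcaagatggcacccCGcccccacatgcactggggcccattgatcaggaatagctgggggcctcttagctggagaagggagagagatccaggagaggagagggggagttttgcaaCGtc
Sox12: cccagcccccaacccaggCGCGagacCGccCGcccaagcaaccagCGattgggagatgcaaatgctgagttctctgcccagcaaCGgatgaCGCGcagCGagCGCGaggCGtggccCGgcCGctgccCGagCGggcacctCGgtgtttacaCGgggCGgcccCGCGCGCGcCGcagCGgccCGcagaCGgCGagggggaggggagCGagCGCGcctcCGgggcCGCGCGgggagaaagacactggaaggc
Tbx19: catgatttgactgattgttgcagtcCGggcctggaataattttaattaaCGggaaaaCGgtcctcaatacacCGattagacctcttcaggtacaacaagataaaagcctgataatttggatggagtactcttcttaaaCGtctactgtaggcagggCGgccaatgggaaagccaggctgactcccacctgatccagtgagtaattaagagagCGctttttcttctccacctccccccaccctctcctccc

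The Sox14 and Tbx20 stretches lay wholly in peaks in all 4 lists. The Tbx10 stretch lay wholly in peaks under DMSO and outside them under GSK343, and those of Sox12 and Tbx19 lay outside peaks throughout. Sox12 and Sox14 carry dense CG alike and stood at opposite ends of coverage, while Tbx10 had its start in a DMSO peak with 3 CG.

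Other genes with an HMG box, which include the lymphoid factors Tcf7, Lef1 and Tox and the chromatin proteins Hmgb1, Hmgb2 and Ssrp1, were set beside the Sox genes. Of 23 such genes, 10 (DMSO) and 8 (GSK343) had a peak in the window in WT cells and 12 and 7 in mutant cells, and none was covered by at least 50% in any list. The highest value in WT DMSO was 31.5%, at Tox2, a gene of T cell differentiation. Tcf7, a T cell factor, was covered by 8.70%, 6.11%, 12.3% and 5.62% from WT DMSO to mutant GSK343. Of the 18 Sox genes, 10, 3, 11 and 3 were covered by at least 50% in the same order. Gene length bears on this contrast, since the median Sox gene body is 5.17 kb and some of the 23 genes are far longer. Tox2 reaches from 163203058 to 163324172 on chromosome 2. Tcf7l2, covered by 25.4% in WT DMSO, reaches from 55741797 to 55933659 on chromosome 19. Covered length was not compared for these genes, so a low share there does not show that wide domains are absent.

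MGA pairs with MAX, and 12 genes of the MAX network were set beside Mga. A peak lay in 4, 3, 4 and 3 of their windows from WT DMSO to mutant GSK343. Among all protein-coding genes the percentages were 43.5%, 26.3%, 48.9% and 24.4%. The counts of the 12 are near or below those shares, and nothing about the network is read from them. Max and Myc had no peak in any list. Beside Myc, 1 peak number is missing in WT GSK343 and 2 in mutant GSK343, between flanking peaks 6568 and 4600 kb apart. Mycn, Mycl and Mlxipl, which encode tissue-restricted members of the network, were covered by 52.6%, 56.1% and 67.4% in WT DMSO and by 34.8%, 13.3% and 14.1% in WT GSK343. A further 14 genes encode factors known to act with Sox or T-box proteins. They include the neural factors Pou3f2 and Pax6 and the heart factors Nkx2-5, Gata4 and Hand2. Of the 14, 13, 12, 12 and 12 had a peak, against the 43.5%, 26.3%, 48.9% and 24.4% of all genes. The median covered share of the 14 was 83.8% under DMSO and 41.4% under GSK343 in WT cells, and 94.0% and 35.3% for the mutant. Mef2c, a muscle factor that B cells also use, had no peak in any list.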

How the data were processed

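H3K27me3 ChIP-seq peaks of splenic B cells were used as the authors deposited them, 1 broad peak list per genotype and treatment, over 16 samples (8 ChIP, 8 input). Per the submitters' processing notes, the tools were Bowtie2 2.4.2, SAMtools 1.12, MACS2 2.2.7.1, bedtools 2.29.2 and deepTools 3.5.1 with the mm10 build; their settings are not given in the sources used here. The deposited columns are peak positions, a score, a fold enrichment (a ratio to background) and the −log10 of the p-value and q-value. The deposited peak names carry a folder name that speaks of pooled duplicates, but those of the mutant lists also end their library name in 1. No values per replicate were used here and no test was run. Whether the 2 replicates of a group were separate animals is not given, and read depth and sequencing precision are unknown. In each list the lowest deposited −log10 q-value lay between 1.03 and 1.07.

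The covered share was computed from the union of peaks over each gene body plus 5 kb, with genes and start sites from RefSeq on GRCm38.p6, the mm10 build. Of several listed starts the most upstream was used. Code was checked on 1000 simulated windows, all recovered, and all 124 member windows gave the values of bedtools 2.31.1. Work was done in Python 3.11.15 with pandas 2.3.3 and matplotlib 3.10.9. Members, gene lists, the 50% threshold and the 10 kb width were chosen with earlier results of these data known. All 31 members are named, and neighbours only where they overlap a described window. One marker gene of the fixed lists is not reported here. There were 8 alternative settings: a q-value of at most 0.01, a fold of at least 3, −log10 p of at least 5, equal numbers of top peaks, peaks closer than 3 kb merged, peaks of at least 1 kb, and windows of the gene body alone or plus 10 kb. For counts at 50%, start-site values and genotype ratios, these were added after seeing the data.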

Additional observations from a re-analysis of the deposited data

Results flagged for a closer look

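The covered length summed over each family's windows stood in opposite order between the genotypes under the 2 treatments. For the Sox genes the mutant to WT ratio was 1.25 under DMSO and 0.902 under GSK343. For the T-box genes it was 1.07 under DMSO and 0.932 under GSK343. The same order was present over the windows of all protein-coding genes, at 1.47 and 0.834. Each ratio compares 2 lists, and the difference between treatments was not tested. The lists held 49803 peaks in mutant DMSO against 39495 in WT DMSO, and 10847 in mutant GSK343 against 11903 in WT GSK343, so the number of peaks called moves with these ratios, and its part in them was not tested. With −log10 p of at least 5 the T-box ratio under GSK343 was 1.05, above 1 like the DMSO ratio. With peaks closer than 3 kb merged, the GSK343 ratios were near 1, at 0.998 for Sox and 0.979 for T-box genes.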

How the results depend on the processing

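Of 240 values that 32 summary results took under the alternative settings, 228 stayed within 1.5 times the value reported, 11 moved further and 1 changed direction. The Sox median covered share in WT GSK343, 26.02%, was 15.2% with a q-value of at most 0.01, with a fold of at least 3 and with −log10 p of at least 5, and 16.5% with the gene body plus 10 kb. In mutant GSK343 the Sox median of 16.7% was 31.6% over the gene body alone and 25.6% with peaks closer than 3 kb merged. The T-box median in WT DMSO, 26.2%, was 42.1% over the gene body alone. It was 8.55% in WT GSK343 with −log10 p of at least 5, from 17.4%, and 24.0% in mutant GSK343 with peaks merged, from 14.4%. Genes covered by at least 50% over the gene body alone numbered 12 in WT GSK343 and 11 in mutant GSK343, from 7 and 6. The T-box mutant to WT ratio under GSK343, 0.932, was 1.05 with −log10 p of at least 5. The cause was not tested. The Sox median covered share was above the T-box median in 33 of 36 combinations of setting and list. For single genes, 61 of 413 retained shares moved by more than 1.5 times, 23 higher and 38 lower. No paired analysis was possible because each genotype and treatment has a single list, and leaving out a replicate could not be run either.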

Other observations

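Among the factors known to act with Sox and T-box proteins, Pou5f1, the pluripotency factor that binds DNA with SOX2, had covered shares of 60.3% and 42.9% in WT cells with DMSO and GSK343 and of 37.2% in mutant cells with GSK343, but of 0% in mutant DMSO. In mutant DMSO 8 peak numbers are missing between the peaks that flank its window, which lie 165 kb apart, and in WT DMSO 10 are missing over 166 kb. The value of 0% therefore lies beside peaks that were removed from the list, whose positions were not analysed here.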
